A study of Arabidopsis halleri subsp. gemmifera and Arabidopsis thaliana with 4 samples.

Results

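In roots of the metal hyperaccumulator Arabidopsis halleri, 75 of the 33602 loci in the A. thaliana gene set carried reads while none were counted in roots of A. thaliana. A locus was a member of this set when it had 0 reads in both A. thaliana root libraries and a mean level of at least 5 CPM (reads per 1000000 counted reads) in the 2 A. halleri libraries. 1 further locus, AT5G44440, met the same rule and was left out. The members were chosen by their read counts in these 4 libraries, so their difference between the species is given as a description, without a test. The strongest members were a ribosomal protein L30e gene, a cystatin-like gene, a SAR-type GTPase gene, the fatty acyl reductase gene FAR8 and the terpene synthase gene TPS10, while pseudogenes and F-box genes were the most frequent classes with a name.

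The study sequenced RNA from whole roots of hydroponically grown A. halleri subsp. gemmifera and of A. thaliana, with 2 libraries from each species. All plants grew in half-strength Hoagland solution, which supplied zinc as 0.8 µM ZnSO4, iron as 10 µM NaFeEDTA and copper as 0.3 µM CuSO4. The labels call both groups control and the libraries biological replicates. They give no accession, age or number of plants, so p-values measure only the spread between these libraries. The A. halleri libraries held 16335761 and 15497893 counted reads, and the A. thaliana libraries 18127031 and 22762183. The gene models are those of A. thaliana for every library, so a locus here stands for the A. thaliana model that took the reads, not for a gene sequenced in A. halleri. A. halleri reads that differ from the A. thaliana sequence may fail to match. A low or 0 count in A. halleri can therefore not be told apart from lost reads, and this was not tested.

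Gene families grow and shrink by duplication and loss, and related species differ in which copies they keep. In plants, F-box proteins, which choose the targets of ubiquitin ligases, NBS-LRR immune receptors, cytochromes P450 and terpene synthases are known for rapid turnover of copies. Copies of a family share sequence, so a short read can match more than 1 of them.

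The following windows are 90 bases from the middle of the longest coding exon of 4 strong members, each above its best ungapped match in the locus outside the set with the closest protein. They are A. thaliana reference sequences (RefSeq, TAIR10.1), shown 5′ to 3′ on the coding strand, and capitals mark the bases that differ between the 2 loci. They show how far these loci differ base by base. A copy with the closest protein need not have the closest transcript: AT1G36240 matches the transcript of a further L30e gene, AT3G18740, at 89.1% identity and that of AT1G77940 at 82.6%.
AT1G36240: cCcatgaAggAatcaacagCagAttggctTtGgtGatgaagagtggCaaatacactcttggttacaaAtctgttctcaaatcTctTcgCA
AT1G77940: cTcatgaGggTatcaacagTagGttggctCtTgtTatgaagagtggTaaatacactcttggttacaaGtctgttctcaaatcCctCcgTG
AT1G02620: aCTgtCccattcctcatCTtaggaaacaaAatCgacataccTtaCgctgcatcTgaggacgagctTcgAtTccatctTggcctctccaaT
AT4G02080: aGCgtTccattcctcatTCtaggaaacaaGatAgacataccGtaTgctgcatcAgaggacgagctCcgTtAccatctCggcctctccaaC
AT3G44560: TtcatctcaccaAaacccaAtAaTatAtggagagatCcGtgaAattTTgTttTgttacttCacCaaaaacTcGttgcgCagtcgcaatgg
AT3G44550: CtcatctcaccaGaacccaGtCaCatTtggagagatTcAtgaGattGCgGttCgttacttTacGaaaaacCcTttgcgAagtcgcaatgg
AT5G46660: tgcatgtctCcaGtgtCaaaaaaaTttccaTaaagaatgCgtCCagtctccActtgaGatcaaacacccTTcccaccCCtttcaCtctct
AT4G10370: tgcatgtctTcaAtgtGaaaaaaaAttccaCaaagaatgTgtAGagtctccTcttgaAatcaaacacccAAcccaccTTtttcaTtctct

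The L30e windows lie at chr1:13614999-13615088 on the plus strand and chr1:29305062-29305151 on the minus strand, and differ at 14 bases. The GTPase windows lie at chr1:557447-557536 and chr4:922326-922415, both on the plus strand, and differ at 15 bases. The fatty acyl reductase windows lie at chr3:16153649-16153738 and chr3:16140146-16140235, both on the plus strand, and differ at 18 bases. The windows of the C1-domain zinc finger genes lie at chr5:18932594-18932683 on the plus strand and chr4:6425117-6425206 on the minus strand, and differ at 15 bases. The L30e windows were thus the most alike of the 4, at 84.4% identity.

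The members together took 15345 reads in the first A. halleri library and 14562 in the second, which is 0.0939% and 0.0940% of the counted reads. Their mean levels ran from 5.03 to 68.8 CPM with a median of 9.22 CPM. The median over the other loci at 5 CPM or more in A. halleri was 26.8 CPM. The members made up 0.493% of the 15217 loci at 5 CPM or more in A. halleri. 8 members reached 20 CPM, 33 reached 10 CPM and 42 stayed below 10 CPM. The reverse rule, 0 reads in A. halleri and at least 5 CPM in A. thaliana, was met by 161 of 15067 loci, or 1.07%. These counts are not on equal terms. A. halleri reads were counted on A. thaliana models, and the A. thaliana libraries held more reads.

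A count of 0 in both A. thaliana libraries allows a level of up to 0.0734 CPM (3 reads over both libraries together), a limit that covers counting error only. Set against that limit, the members were at least 68.5-fold to 939-fold higher in A. halleri. The bulk libraries cannot tell fewer cells of a type from less RNA per cell. In all, 9699 loci had 0 reads in both A. thaliana libraries. Of these, 1637 had at least 1 read in A. halleri and 252 had a mean of at least 1 CPM.

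The strongest member was AT1G36240, an L30e-type protein of the large ribosomal subunit on chromosome 1 (TAIR10.1, 13614890 to 13616233, plus strand). It had 1132 and 1060 reads in the 2 A. halleri libraries, which is 68.8 ± 0.636 CPM (SD, n = 2). Per kilobase of model it was also the highest member, at 204 and 202 RPKM (CPM divided by model length in kilobases). The libraries gave nearly the same value, and the A. thaliana count of 0 puts the difference at 939-fold or more. AT1G63190 (chromosome 1, 23431730 to 23433178, plus strand) followed with 696 and 714 reads, or 44.3 ± 2.45 CPM (SD, n = 2). It is annotated to the cystatin/monellin superfamily, and whether it inhibits proteases was not tested. AT1G02620 (chromosome 1, 557092 to 558774, plus strand) had 679 and 666 reads, or 42.3 ± 0.996 CPM (SD, n = 2). It is annotated as a Ras-related GTPase, and its closest relative SAR2 belongs to the GTPases that start COPII vesicles at the endoplasmic reticulum. These 3 genes stood above every other member in both A. halleri libraries.

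AT4G15242 was the only non-coding RNA among the members (chromosome 4, 8705787 to 8706997, minus strand), with 578 and 586 reads. AT1G02620 and AT4G15242 each overlap an annotated transcript on the opposite strand, AT1G04133 and AT4G15245. The sources used here do not say whether counting used strand, so reads of such partners cannot be told apart. In all, 6 members overlap a locus on the other strand and 8 overlap any locus. AT4G35370, a WD40 repeat protein (chromosome 4, 16815138 to 16817544, plus strand), had 499 and 525 reads, or 32.2 ± 2.35 CPM (SD, n = 2). Both libraries again gave like values for these loci.

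Among genes of lipid and terpene metabolism, FAR8 (AT3G44560) had 469 and 372 reads, or 26.4 ± 3.33 CPM (SD, n = 2). FAR8 lies on chromosome 3 (16151123 to 16154607, plus strand) and is a fatty acyl reductase, an enzyme class that makes the fatty alcohols of suberin and waxes. TPS10 (AT2G24210, chromosome 2, 10294286 to 10297597, plus strand) had 386 and 392 reads, or 24.5 ± 1.18 CPM (SD, n = 2). TPS10 encodes a monoterpene synthase that makes linalool in A. thaliana. The first library was the higher for FAR8, and the libraries were nearly equal for TPS10.

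The other members among the 12 strongest had lower counts. AT5G01080, related to beta-galactosidases, had 359 and 306 reads, of which 38.5% were unique to it. It matches a second member, the pseudogene AT1G30784, at 99.1% of 555 bases, so reads of these loci cannot be told apart well and their levels are uncertain. AT3G28270, of the DUF677 family of unknown function, had 362 and 229 reads, of which 0.846% were unique. It has 2 transcript models, between which reads can also be shared. AT1G19060, of the DUF626 family of unknown function, had 262 and 305 reads. The F-box pseudogene AT1G67645 had 265 and 300 reads, 39.8% of them unique, and AT5G46660, a C1-domain zinc finger protein, had 271 and 289 reads. AT3G28270 fell furthest apart between the libraries among these 12.

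**Figure D1:**
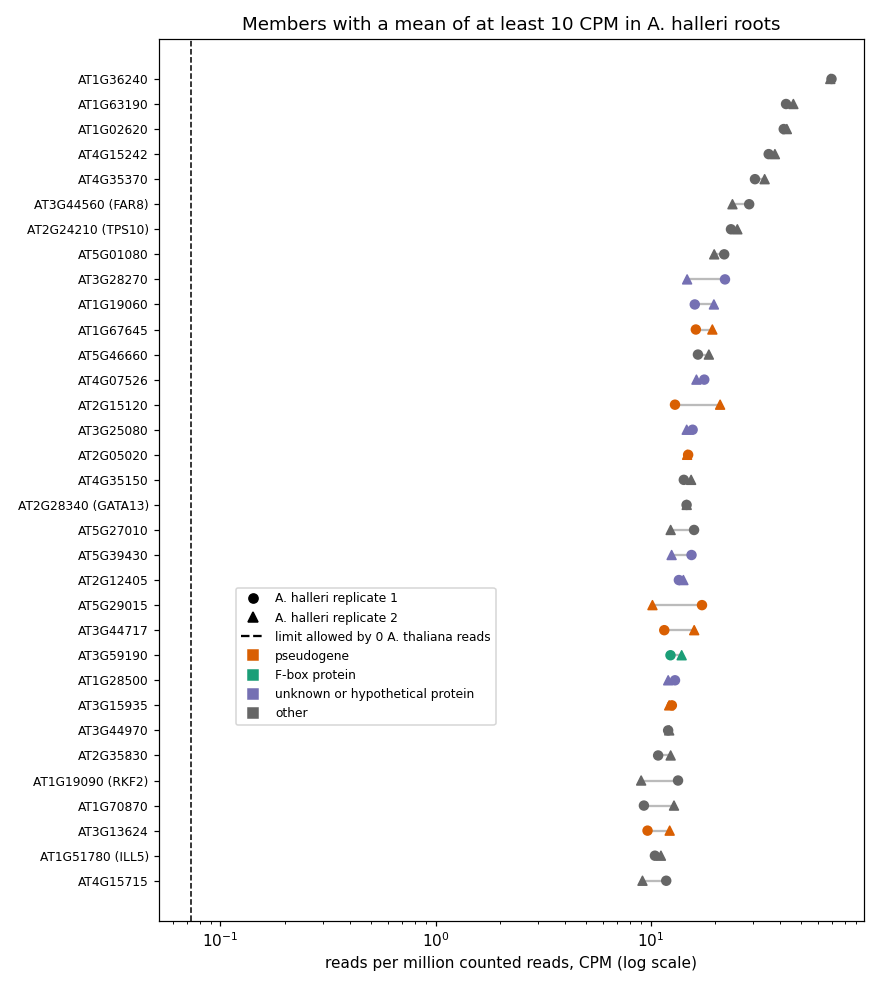
CPM (log axis) of the 33 members with a mean of at least 10 CPM, one row a locus, with a circle for the first and a triangle for the second A. halleri library, coloured by class. The dashed line is the 0.0734 CPM that a count of 0 over both A. thaliana libraries allows, and every A. halleri value lies far to its right.

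The A. halleri libraries gave like values for most members. The log2 ratio of the second to the first library had a median size of 0.17 over the members and ran from -0.76 to 0.70. Over 11945 loci of like level the median size was 0.14. 41 of 75 members were higher in the second library. 5 members differed by more than 1.5-fold between the libraries: AT2G15120 had 212 and 326 reads, AT5G29015 had 283 and 158, AT5G22460 had 86 and 130, AT5G27505 had 132 and 81, and AT2G14950 had 100 and 61. 4 of these 5 are annotated as pseudogenes, and they were named after their values were seen.

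**Figure D2:**
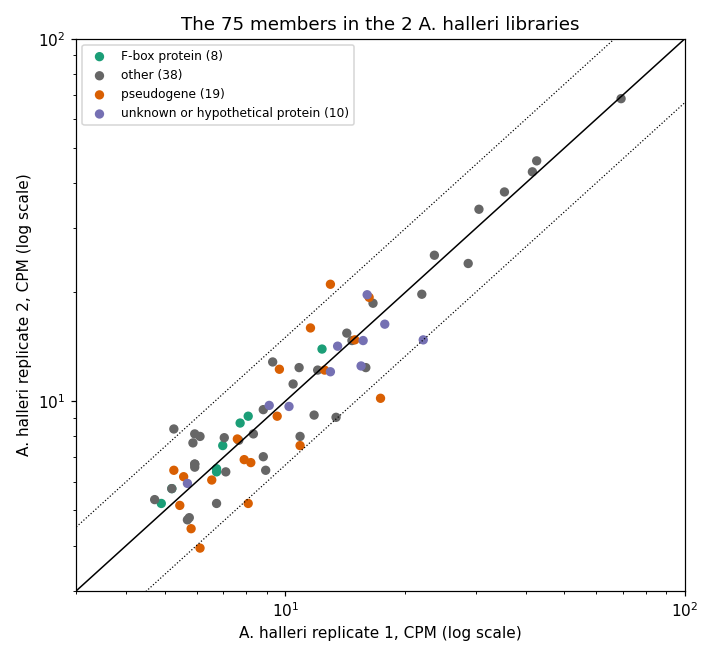
CPM of each of the 75 members in the first (x) and second (y) A. halleri library, both axes log, with equality as a solid line and 1.5-fold differences as dotted lines. Most points lie between the dotted lines, and 5 lie outside them.

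At the threshold of 5 CPM, the members just inside were AT2G14950 at 5.03 CPM, the NBS-LRR gene AT4G09360 at 5.03 CPM, the F-box gene AT4G00160 at 5.06 CPM and AT4G04316 at 5.13 CPM. The loci just outside were AT3G17260 at 4.92 CPM, AT4G33320 at 4.90 CPM, the TRAF-like gene AT1G31400 at 4.90 CPM and AT1G68420 at 4.74 CPM. Both sides had 0 reads in A. thaliana, so the threshold cuts a continuous range of levels.

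Pseudogenes were the most frequent class. 19 members, or 25.3%, are annotated as pseudogenes, against 0.284% of the other loci at 5 CPM or more in A. halleri. Of the 161 loci read only in A. thaliana, 13.0% were pseudogenes, and of all 33602 loci 14.4% were. The rule asks for 0 A. thaliana reads, which the other loci at 5 CPM or more need not meet. Only 350 of the 4837 pseudogenes had reads in both species, so this contrast is partly set by the rule. Class shares among the 9699 loci with 0 A. thaliana reads were not counted. The same limit holds for every class share below. The strongest were the F-box pseudogene AT1G67645 at 17.8 CPM, AT2G15120, a pseudogene of a plant basic secretory protein, at 17.0 CPM, and AT2G05020 at 14.9 CPM. These labels describe the A. thaliana copy, and whether the A. halleri sequence is intact was not tested.

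F-box genes formed the largest protein family, with 8 members or 10.7%, against 0.687% of the other loci at 5 CPM or more. Of the loci read only in A. thaliana 4.35% were F-box genes, and of all loci 1.87% were. Only 208 of the 629 F-box loci had reads in both species. The strongest of the 8 members were AT3G59190 with 202 and 216 reads, AT1G21990 with 132 and 141, and AT3G17570 with 126 and 135. The other 5 were AT3G49020, AT2G33200, AT3G17620, AT1G53815 and AT4G00160, at 5.06 to 7.26 CPM. 3 of the pseudogenes, AT1G67645, AT3G15935 and AT3G13624, are also named after F-box proteins. All 8 were thus below 14 CPM in both A. halleri libraries.

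3 members, or 4.00%, were cytochromes P450, against 0.674% of the other loci at 5 CPM or more. The share was 1.86% of the loci read only in A. thaliana and 0.738% of all loci. The 3 members were AT3G44970 with 197 and 189 reads, CYP71B36 with 100 and 124, and CYP71B14 with 96 and 119. The O-methyltransferase AT4G35150 had 233 and 239 reads and a second one, AT1G51990, had 146 and 100. ILL5 (AT1G51780), of the family that frees the auxin IAA from amino acid conjugates, had 171 and 173 reads. Most of these values were close between the libraries, and AT1G51990 differed most.

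In signalling and defence, the receptor-like kinase gene RKF2 had 219 and 140 reads. The NBS-LRR immune receptor genes were AT5G47260 with 136 and 126 reads and AT4G09360 with 77 and 83. That makes 2.67% of the members against 0.383% of the other loci at 5 CPM or more. The share was 1.24% of the loci read only in A. thaliana and 0.464% of all loci. The second cystatin-like gene, AT4G15715, had 193 and 142 reads. The transcription factor gene GATA13 had 240 and 228 reads. Of these genes RKF2 and AT4G15715 were higher in the first library, and the rest were nearer to equal.

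The remaining members were spread over single families. They included the subtilisin-like protease gene AT1G32980 with 144 and 147 reads, the aquaporin-like gene AT1G52180 with 144 and 109, and the second ribosomal protein gene AT3G10950 with 97 and 102. The glycosyl hydrolase family 35 gene AT2G04060 had 110 and 81 reads. 10 members, or 13.3%, are annotated as hypothetical or of unknown function, against 7.53% of the other loci at 5 CPM or more. The share was 10.6% of the loci read only in A. thaliana and 10.11% of all loci. 20 members fall in no listed family. The strongest unknown besides AT3G28270 and AT1G19060 was AT4G07526 with 290 and 253 reads, none of them unique, and with 3 transcript models.

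**Figure D3:**
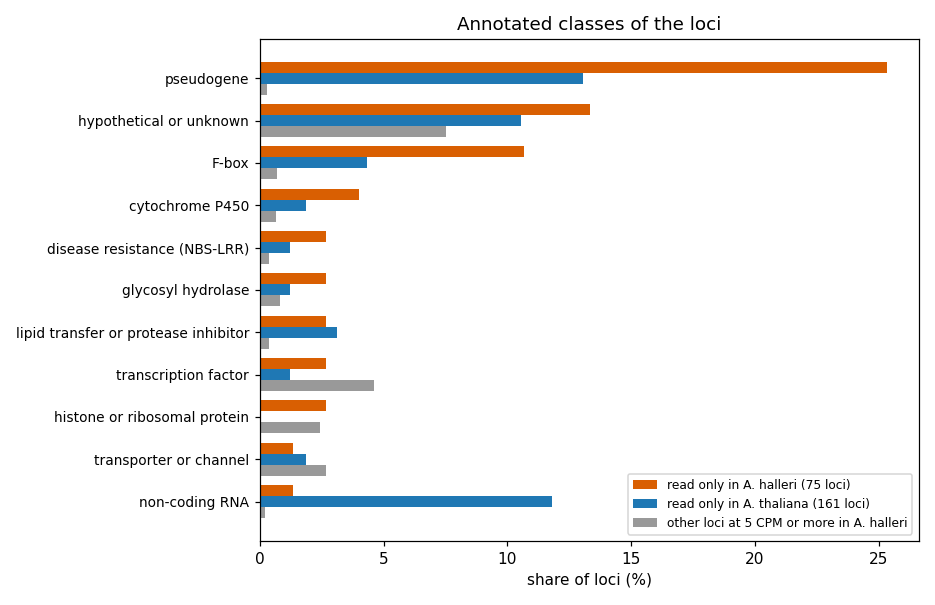
Share of loci (%) in each annotated class for the 75 members, the 161 loci read only in A. thaliana and the other loci at 5 CPM or more in A. halleri. Pseudogenes reach 25.3% of the members and 13.0% of the loci read only in A. thaliana, against 0.284% of the other loci. The other loci need not have 0 A. thaliana reads, so the contrast is partly set by the rule. The transcription factor class also takes in zinc finger proteins such as AT5G46660.

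Some features of the members were not named in the rule. 89.3% had 1 transcript model, against 70.5% of the other loci at 5 CPM or more. Their median model length was 1203 bases against 1615, and their median GC content 40.9% against 41.5%. Read counts grow with model length, so length is not independent of a rule on reads. They lay on all 5 chromosomes, with 22, 15, 14, 10 and 14 members on chromosomes 1 to 5. Only 2 groups of members were neighbours. AT2G04060 and AT2G04063, a glycine-rich protein gene, adjoin each other with 97 and 104 reads for the latter, and AT1G19060 lies 3 loci from RKF2.

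By sequence, 26 members fell into 9 groups of relatives. The largest held 5 genes of unknown function, the DUF626 genes AT1G19060, AT3G25080, AT1G28500 and AT1G27860 with AT1G24388. These 5 loci had means of 9.43 to 17.9 CPM, and AT1G27860 and AT1G28500 match at 83.4% of 984 bases. Groups of 4 held F-box-associated loci and F-box/FBD loci, and a group of 3 held the cytochromes P450. The pseudogenes AT5G29015 and AT3G43652 match at 89.4% of 1994 bases.

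The closest relatives outside the set, here called copies, were tested next. They were ranked by sequence, but membership itself rests on reads: for 6 members the closest locus was another member and was passed over. For 24 members the best transcript match was a locus other than the copy used. A related locus that is no member was found for 71 members (52 by protein and 19 by transcript), which gave 69 distinct loci. Protein identity in those 52 pairs had a median of 63.2% and ran from 31.0% to 94.6%, so many copies were distant relatives. edgeR's quasi-likelihood test, fitted over all loci with Benjamini-Hochberg adjustment, could test 51 of them. 24 were higher in A. halleri and 21 lower at an adjusted p under 0.05, and 6 were not called. That is 47.1% higher and 41.2% lower, against 35.7% and 36.8% of all 20899 loci tested (72.5% called in either direction). The median log2 difference was 0.15, against -0.01 over all loci tested, so the copies went both ways. Members could not be copies whereas loci read only in A. thaliana could. Among loci with reads in both species, 24 of 50 copies were higher and 20 lower, or 48.0% and 40.0%, against 35.6% and 35.9% of 20126 loci tested.

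Copies of several strong members were lower in A. halleri. AT1G77940, whose L30e protein is 94.6% identical to that of AT1G36240, had 1706 and 1392 A. halleri reads against 4724 and 6302 from A. thaliana. The copy was 2.93-fold lower in A. halleri (log2 difference -1.55, SE 0.10, edgeR adjusted p = 9.49e-06). Member and copy summed to 166 ± 11.0 CPM in A. halleri against 269 ± 11.5 CPM in A. thaliana (SD, n = 2 each), and the member supplied 41.5% of the A. halleri sum. AT3G18740, the closest by transcript, had 3127 and 2948 reads against 5027 and 6669 and was 1.58-fold lower (edgeR adjusted p = 0.000264). SAR2 (AT4G02080), with 91.0% protein identity to AT1G02620, had 792 and 766 reads against 2268 and 2791. SAR2 was 2.67-fold lower in A. halleri (log2 difference -1.42, SE 0.09, edgeR adjusted p = 7.92e-06), and the member supplied 46.3% of the sum.

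FAR5 (AT3G44550), a fatty acyl reductase with 85.5% protein identity to FAR8, had 128 and 88 A. halleri reads against 463 and 551 from A. thaliana. It was 3.88-fold lower in A. halleri (log2 difference -1.96, SE 0.16, edgeR adjusted p = 3.23e-05), and FAR8 supplied 79.6% of the A. halleri sum. The cineole synthase locus TPS-CIN (AT3G25820), the closest to TPS10 at 63.8% protein identity, had 38 and 48 reads against 226 and 175. It was 3.90-fold lower (log2 difference -1.97, SE 0.29, edgeR adjusted p = 0.000667). Too few of its reads were unique to test those alone, so its level is uncertain. AT4G18905, the WD40 relative of AT4G35370 with 57.9% protein identity, was 1.52-fold lower (log2 difference -0.60, edgeR adjusted p = 0.00167). With unique reads alone its log2 difference was -2.73 (edgeR adjusted p = 6.61e-05). For each of these copies the 2 libraries of one species lay apart from those of the other. How many of all loci did so was not counted, and 72.5% of all loci tested were called in either direction.

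AT4G10370, the C1-domain relative of AT5G46660, had 3 and 2 A. halleri reads against 24 and 44 from A. thaliana, and its log2 difference was -3.41 (SE 0.47, edgeR adjusted p = 0.000448). AT3G28290, the DUF677 relative of AT3G28270 with 43.7% protein identity, had 1 and 0 reads against 24 and 31. Its ratio of A. thaliana to A. halleri levels was 42.8 (95% interval from counting alone, 7.37 to 1722). The closest loci to AT1G63190, AT5G01080 and AT1G19060 had too few reads to be tested. AT1G63200 had 3 and 1 A. halleri reads and none from A. thaliana, AT5G35760 had 0 in all 4 libraries, and AT1G02770 had 1 and 4 A. thaliana reads and none from A. halleri.

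Other copies were higher in A. halleri, together with the member. The F-box pseudogene AT1G67610, with a 98.7% transcript match to AT1G67645, had 352 and 428 A. halleri reads against 1 and 0 from A. thaliana. The ratio of levels was 1002 (95% interval from counting alone, 179 to 39622). Here the low share of unique reads leaves the split between the copies uncertain. The following copies were named after their values were seen. AT4G35160, an O-methyltransferase next to AT4G35150, had 2077 and 2242 reads against 444 and 498 and was 5.55-fold higher (edgeR adjusted p = 2.64e-06). CYP71B37, next to CYP71B36, had 999 and 903 reads against 330 and 400 and was 3.16-fold higher (edgeR adjusted p = 5.68e-06). CYP708A2, a hydroxylase of the thalianol pathway in A. thaliana roots, is the closest to AT3G44970, with 58.7% protein identity. CYP708A2 had 476 and 295 reads against 110 and 179 and was 3.25-fold higher (edgeR adjusted p = 0.000337).

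Lower copies outside the strongest pairs, also picked after their values were seen, were AT2G35810, closest to the ureidoglycolate hydrolase gene AT2G35830, and AT3G12800, a short-chain dehydrogenase gene closest to AT2G07640. AT2G35810 had 242 and 259 reads against 1441 and 1774 (5.28-fold lower, edgeR adjusted p = 2.16e-06), and AT3G12800 had 273 and 304 against 1144 and 1529 (3.79-fold lower, edgeR adjusted p = 7.71e-06). The copy also carried most of the reads in some pairs. OMT1, a caffeic acid O-methyltransferase of lignin synthesis, is the closest to AT1G51990, with 48.3% protein identity. OMT1 stood at 803 ± 11.96 CPM in A. halleri, above its 295 ± 6.63 CPM in A. thaliana (SD, n = 2 each). AT1G51990 thus supplied 0.949% of that pair's A. halleri reads. The tonoplast aquaporin gene DELTA-TIP, closest to AT1G52180, had 5429 and 3807 reads against 2473 and 3303 and was 1.94-fold higher (edgeR adjusted p = 0.000512). IAR3, closest to ILL5, went the other way with 1130 and 1129 reads against 2080 and 2564, or 1.69-fold lower (edgeR adjusted p = 0.000177). Over all 71 pairs the member had more A. halleri reads than its copy in 41.

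**Figure D4:**
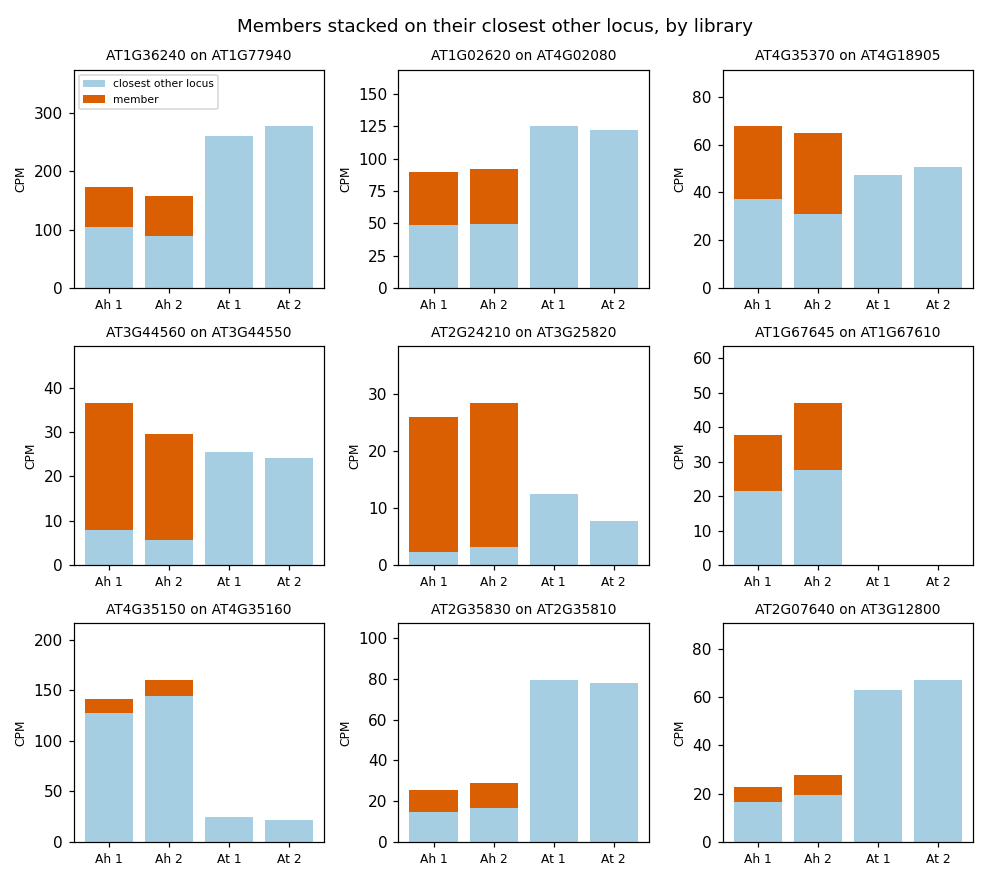
CPM of 9 members (orange) stacked on their closest other locus (blue) in the A. halleri (Ah) and A. thaliana (At) libraries, one panel a pair with its own linear axis from 0; the pairs were chosen after their values were seen. The member is present in the A. halleri bars alone, and the pair's total is higher in A. thaliana for AT1G36240 and AT1G02620 and higher in A. halleri for AT2G24210 and AT4G35150.

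Directions were mixed among copies found by protein, both close and distant in sequence. Of 14 tested copies with at least 80% protein identity, 6 were higher and 7 lower in A. halleri. Of 25 below 80%, 10 were higher and 12 lower. Of 12 tested copies found by transcript, 8 were higher and 2 lower, or 66.7% and 16.7%, with a median log2 difference of 3.30. Some of these matches covered little of the member, such as 21.2% of AT5G29015. Others were nearly identical, such as AT1G67610 at 98.7% and AT3G43523 at 97.8%, so reads can be shared. Of 12 tested copies within 20000 bases of their member, 8 were higher and 4 lower, or 66.7% and 33.3%. Of 39 elsewhere 16 were higher and 17 lower, or 41.0% and 43.6%. Over all loci tested, 35.7% were higher and 36.8% lower, with 72.5% called in either direction. The difference between near and distant copies was not tested, nor was that between copies found by protein and by transcript.

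Loci flanking the members were tested in the same fit. Of 148 distinct flanking loci, 80 could be tested, of which 41 were called higher and 24 lower in A. halleri, leaving 15 without a call. That is 51.2% higher and 30.0% lower, against 35.7% and 36.8% of all loci tested, with a median log2 difference of 0.43 against -0.01. Among loci with reads in both species, 40 of 75 flanking loci were higher and 20 lower, or 53.3% and 26.7%, against 35.6% and 35.9%. Among the 67 tested flanking loci that are not related in sequence to their member, 32 were higher and 21 lower, or 47.8% and 31.3%, with a median of 0.24. 43 flanking loci, or 29.1%, had 0 reads in all 4 libraries, against 24.0% of all loci, and 8 members had both flanking loci at 0.

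The strongest member, AT1G36240, lay between 2 loci with 0 reads in all 4 libraries. Beside AT1G63190, the UDP-glucose epimerase gene UGE3 (AT1G63180) had 45 and 41 reads against 66 and 95 (log2 difference -0.62, SE 0.22, edgeR adjusted p = 0.0346), a call lost with DESeq2 (adjusted p = 0.151) and without either A. halleri library (0.106 and 0.111) or the second A. thaliana library (0.164). Beside AT1G02620, the zinc finger gene AT1G02610 had 12 and 17 reads against 71 and 73 and was 4.08-fold lower (edgeR adjusted p = 0.00067). The neighbours of AT4G15242 went opposite ways: AT4G15240 was 1.72-fold lower (edgeR adjusted p = 0.000326), and BBX30 (AT4G15248), with 53 and 54 reads against 4 and 6, was 12.7-fold higher (edgeR adjusted p = 5.35e-05).

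Neighbours of the next members also went both ways. AT4G35360, beside AT4G35370, was 2.33-fold higher (edgeR adjusted p = 2.55e-05), and AT4G35380 on its other side was not called (log2 difference 0.04, adjusted p = 0.702). The purine permease gene PUP5, beside TPS10, was 2.17-fold higher (edgeR adjusted p = 0.00445), and the lectin gene AT5G01090, beside AT5G01080, was 2.33-fold higher (edgeR adjusted p = 4.54e-05). Beside AT1G19060, the cytokinin response regulator gene ARR7 was 1.33-fold lower (edgeR adjusted p = 0.0133; 0.0733 without the first A. halleri library). On the other side TTN10 (AT1G19080) had 235 and 204 reads against 123 and 161, a log2 difference of 0.91 (SE 0.14, edgeR adjusted p = 0.000822), which turned to -0.84 (adjusted p = 0.0648) with unique reads alone. AT5G46650, beside AT5G46660, had 34 and 57 A. thaliana reads and none from A. halleri, so it was at least 23.6-fold lower.

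2 members with relatives beside them were picked after their values were seen. AT1G70870, of the polyketide cyclase and lipid transport superfamily, had 152 and 199 reads in A. halleri. Both its neighbours are annotated to the same superfamily and had 0 reads in A. halleri. In A. thaliana AT1G70860 had 294 and 331 reads and AT1G70880 had 929 and 968, so they were at least 162-fold and 492-fold lower in A. halleri. The pectin lyase-like gene AT4G22090, with 93 and 73 reads, lies beside RHS14 (AT4G22080), a root hair-specific relative with 92.4% protein identity. RHS14 had 327 and 309 reads against 73 and 70 and was 5.35-fold higher in A. halleri (edgeR adjusted p = 1.51e-05). BGLU3 (AT4G22100) on the other side had 455 and 428 reads against 0 and 1, which is a ratio of 1134 (95% interval from counting alone, 203 to 44848).

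The families to which members belong moved in both directions in the same fit. They were counted over loci with reads in both species, which leaves out the members and the loci read only in A. thaliana alike. There, 35.6% of 20126 loci tested were higher in A. halleri and 35.9% lower, with 71.5% called in all. Of 171 F-box loci 52 were higher and 73 lower, or 30.4% and 42.7%, and of 132 NBS-LRR loci 44 were higher and 68 lower, or 33.3% and 51.5%. Of 198 pseudogenes 77 were higher and 89 lower, or 38.9% and 44.9%. Of 166 cytochromes P450 73 were higher and 64 lower, and of 21 terpene synthase loci 7 were higher and 12 lower. Glycosyl hydrolases (48.6% higher, 30.1% lower), lipid transfer or protease inhibitor loci (48.2%, 33.7%) and transporters or channels (47.1%, 30.6%) leaned higher. So did receptor-like or lectin kinases (46.0%, 28.3%) and proteases (45.2%, 28.4%). Transcription factor or zinc finger loci (28.5%, 42.7%), loci of unknown function (31.5%, 41.0%), histone or ribosomal proteins (29.4%, 35.2%) and non-coding RNAs (14.0%, 59.6%) leaned lower.

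How reads were assigned bears on the members directly. 62 members had 1 transcript model and at least 95% unique reads. 5 members with 1 model had fewer unique reads (AT5G01080, AT1G67645, AT2G15120, AT1G30784 and AT2G14950), and 8 had more than 1 model, between which reads can also be shared. With unique reads alone, 98 loci met the rule, of which 69 were members. All 75 members passed the filter on low counts through their A. halleri reads.

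Whole-library markers were read alongside. All 12 root markers were read in every library, with summed levels of 942 and 968 CPM in A. halleri and 2020 and 2013 CPM in A. thaliana. The phosphate exporter gene PHO1 and the nitrate transporter gene NRT2.1 made up that gap, and the other 10 root markers summed to 367 and 303 CPM against 304 and 278 CPM. The 5 root hair markers summed to 240 and 185 CPM against 74.6 and 64.8 CPM. PRP3 alone had 143 and 111 CPM against 30.7 and 22.0 CPM. EXPA7, COBL9 and RSL4 were also higher in A. halleri, and RHD6 was lower, at 9.67 and 8.52 CPM against 10.6 and 11.3 CPM. The 6 endodermis markers summed to 310 and 233 CPM against 362 and 358 CPM. The 10 green shoot markers summed to 136 and 181 CPM against 29.8 and 27.0 CPM, 9 of them read in every library. PSBO1 (64.4 and 79.0 CPM against 7.56 and 6.41 CPM) and LHCB3 (33.1 and 41.2 CPM against 4.03 and 3.43 CPM) gave most of that gap. RBCS1A, LHCB1.1, LHCB2.1 and GAPA-1 were also higher in A. halleri, while the libraries of the species overlapped for RCA, CA1, PSAD-2 and RBCS3B. The 6 pollen or flower markers summed to 2.45 and 1.36 CPM against 3.75 and 3.95 CPM, with VGD1 and PPME1 at 0 throughout, and the 5 seed markers stayed under 1 CPM, with CRU3 and SESA1 at 0. The part of root hair and green tissue RNA in the members' reads was not tested.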

How the data were processed

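RNA-seq of roots was deposited as 1 table per library. Each holds counts of total and unique gene reads per transcript model and RPKM values, which per the file headers the authors computed from model length and library size. The submitters' processing notes name TAIR10; no source used here gives the aligner, counter or strand setting. Counts were summed over the 41671 models to 33602 loci, and CPM used the file sum. Intervals and floors cover counting error only. Names, coordinates and sequences are from RefSeq TAIR10.1. Closest copies came from BLAST 2.17.0 (E-value of at most 1e-05). Species were compared with edgeR 4.0.16 in R 4.3.3 (quasi-likelihood test, TMM scaling, default filter on low counts, adjusted p threshold 0.05), checked on simulated data, with DESeq2 1.42.0 as an alternative. The common biological coefficient of variation was 0.112 with 2 residual degrees of freedom. The members and lists were chosen with earlier results of these data known. Named were the 12 strongest members with their closest copies and flanking loci, up to 3 members a family, 8 loci at the threshold and adjacent members; other loci were chosen after their values were seen.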

Additional observations from a re-analysis of the deposited data

How the results depend on the processing

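The number of loci read only in A. halleri, 75, depended on the thresholds: it was 149 at a mean of at least 2 CPM, 33 at 10 CPM and 146 with up to 3 A. thaliana reads, and 72 to 105 with 1 library left out. It stayed within 1.5 times of 75 with at most 1 A. thaliana read (108), 5 CPM in each library (69), unique reads (98) and TMM-scaled libraries (71). Chosen after seeing the data, 62 members had 1 model and at least 95% unique reads, and 67 overlapped no locus. With 1 library left out, the calls numbered 13615 to 14259 over all loci (15161 with all), 42 to 44 among closest copies (45), 54 to 61 among flanking loci (65) and 4481 to 4697 among the families (4893). With the replicate number as a block they numbered 14819, 45, 60 and 4808. Same-numbered libraries deviated with a correlation of -0.0531 over 2 pairs, so the numbers were not taken to pair them. For 30 single copies and neighbours, 259 of 266 values kept direction and call. 6 lost the call (UGE3 and ARR7, UGE3 also under the replicate block with an adjusted p of 0.0583), and 1 reversed, TTN10 at -0.84 with unique reads; the cause was not tested. TPS-CIN, AT3G28290, PUP5 and CYP708A2 had too few unique reads for that setting. By over 1.5 times, AT4G18905 moved from -0.60 to -2.73 (log2) with unique reads and AT5G46650 from -8.37 to -7.66 with DESeq2. AT3G28290 moved from -5.21 to -7.68 and -4.40 without the first and second A. halleri library, and AT1G67610 from 9.54 to 10.49 with unique reads and to 11.78 and 8.54 without the first and second A. thaliana library. Also chosen after seeing the data, loci with reads in both species gave 14388 calls over all loci, 44 among closest copies, 60 among flanking loci and 4476 among the families. The library depth limits the members' A. thaliana level to 0.0734 CPM at most.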
